A study of Homo sapiens with 6 samples.

Results

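The genes described here are *RYBP* and 34 other genes that encode subunits of the Polycomb complexes. They were chosen by their symbols from what the complexes are known to contain. The choice applied no cut on measured values, but earlier results of these data were known. Each of the 35 genes was found once among the 20026 genes of the deposited table. The study deleted miR-23a or miR-27a in HepG2, a human liver cancer cell line, and measured RNA in 6 libraries, with 2 per group for the control (Scr), for miR-23a KO and for miR-27a KO. The comparisons give the transcripts that differ between KO and Scr cells. The deposited expected counts summed to 14891239 and 14405250 for Scr, 16515261 and 15930779 for miR-23a KO, and 15850589 and 15947308 for miR-27a KO. Scr cells, labelled WT, received the Cas9-GFP plasmid without a guide, and the KO cells received it with a pair of guides on either side of the mature miRNA, after which colonies were grown from single sorted cells. The study describes homozygous deletions in both miR-23a KO colonies and in 1 miR-27a KO colony, and a heterozygous deletion with an insertion in the other miR-27a KO colony. It also reports that mature miRNAs of the neighbouring genes of the cluster were altered in both models. The labels number the replicates of a group but do not say which colony each library came from. A difference between colonies grown from single cells and an effect of the deletion cannot be told apart in this design. Part of the label wording names a tumour class that is not used for HepG2, and the sample titles were followed. The miRNAs themselves were not analysed, so the genotype of each library rests on its label.

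Polycomb complexes keep developmental genes silent. PRC2, built around EZH1 or EZH2 with EED and SUZ12, methylates histone H3 on lysine, and PRC1, built around RING1 or RNF2 with a PCGF subunit, adds ubiquitin to histone H2A. Canonical PRC1 carries a CBX protein that reads the PRC2 mark, whereas variant PRC1 carries RYBP or its paralogue YAF2 in place of CBX, and EZH2 is commonly abundant in liver tumours.

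The seeds of both miRNAs are printed because *RYBP* holds 2 sites for each of them. The mature miRNAs come from RefSeq (GRCh38.p14), hsa-miR-23a-3p at chr19:13836595-13836615 and hsa-miR-27a-3p at chr19:13836447-13836467, both on the minus strand. Capitals mark the seed, bases 2 to 8, and the seeds of the 2 miRNAs differ.
hsa-miR-23a-3p: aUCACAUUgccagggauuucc
hsa-miR-27a-3p: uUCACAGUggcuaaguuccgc
A site was a match of 7 bases to the reverse complement of the seed, AATGTGA for miR-23a-3p and ACTGTGA for miR-27a-3p, on the transcript strand of the 3′-UTR of the principal transcript in GENCODE release 29 (GRCh38).

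The *RYBP* 3′-UTR spans 6560 bases on the minus strand of chromosome 3 and held 2 sites for each miRNA, shown with 10 bases on either side and the site in capitals. The miR-23a-3p sites lie at chr3:72377655-72377661 and chr3:72374520-72374526, and the miR-27a-3p sites at chr3:72377832-72377838 and chr3:72373745-72373751. The *BMI1* site for miR-27a-3p, at chr10:22330024-22330030 on the plus strand, is shown because *BMI1* had the highest fitted difference between the KO groups.
RYBP miR-23a-3p site 1: ttttttaaacAATGTGAtctcaaattt
RYBP miR-23a-3p site 2: gaatatttccAATGTGAataggaagct
RYBP miR-27a-3p site 1: tgcttgatacACTGTGAagtgaataca
RYBP miR-27a-3p site 2: tgaggagttcACTGTGAgggcccccac
BMI1 miR-27a-3p site: tagccatgtcACTGTGAataacgattt
A miR-23a-3p site was present in 6 of the 35 members (*RYBP*, *AEBP2*, *ASXL2*, *CBX2*, *JARID2* and *PHF19*), which is 17.1% against 17.6% of 15883 genes with a 3′-UTR. A miR-27a-3p site was present in 8 members (*RYBP*, *ASXL1*, *BCORL1*, *BMI1*, *CBX2*, *PCGF3*, *PHC2* and *SUZ12*), 22.9% against 15.1% of those genes. The members have long 3′-UTRs, with a median of 1947 bases against 977 bases over all genes. These matches are a description of the letters and were not tested for binding.

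The libraries of miR-23a KO stood apart from each other. The squared difference between the replicates, as a multiple of sampling noise over genes whose replicates had 40 counts or more together, had a median of 157 in miR-23a KO, 12.7 in Scr and 1.81 in miR-27a KO. Among the members, 16 were more than 2-fold apart within the miR-23a KO pair (45.7%, against 48.0% of all genes), 2 within the Scr pair (5.71%, against 9.48%) and 0 within the miR-27a KO pair (0.0%, against 3.62%). The side on which a member fell in miR-23a KO went with its base composition. Of the 18 members with a transcript GC content of 50.5% or more, 11 were higher in replicate 1, and of the 17 members below that, 1 was. The median log2 ratio of replicate 1 to replicate 2 was 0.32 for the first and -1.20 for the second. In Scr, 13 of the GC-rich and 4 of the GC-poor members were higher in replicate 1, and in miR-27a KO 11 and 9. Across the 35 members the Spearman correlation of this ratio with GC content was 0.681 in miR-23a KO, 0.667 in Scr and 0.0527 in miR-27a KO, beside 0.673, 0.458 and 0.0957 across all genes, where the genes share their libraries and are not independent. The part of base composition in the differences between groups was not tested beyond the corrected fits given below.

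**Figure D1:**
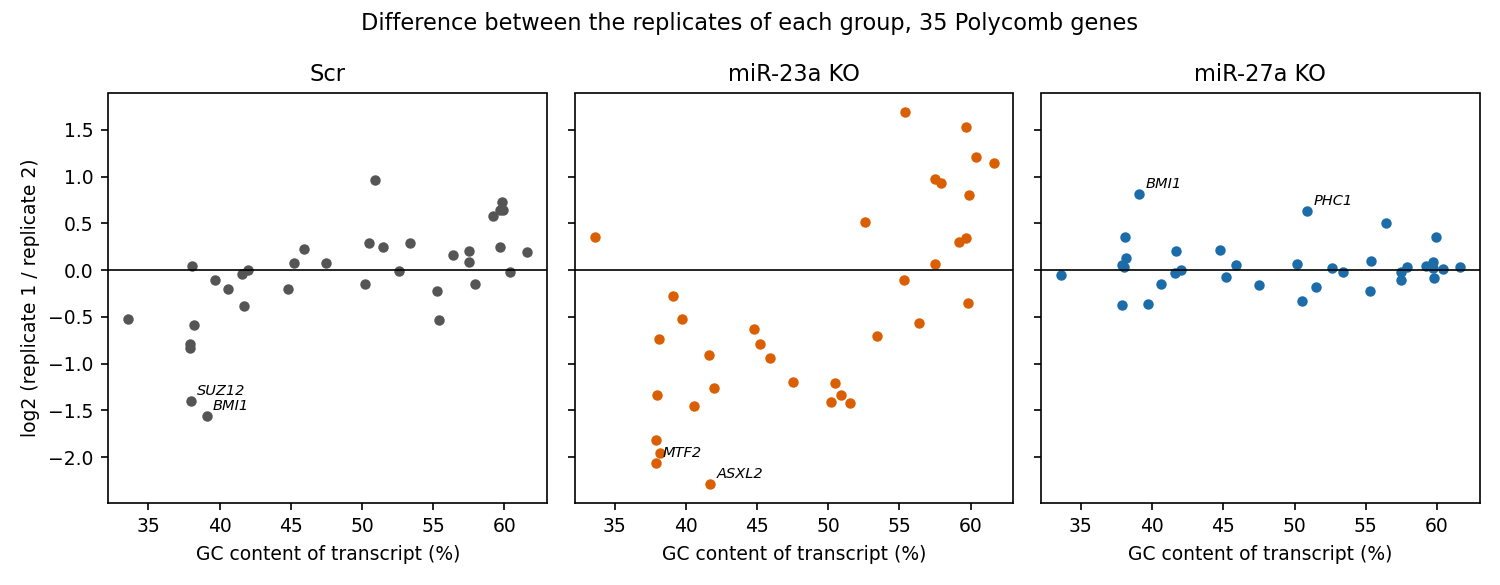
Log2 ratio of replicate 1 to replicate 2 (vertical axis) against the GC content of the transcript in percent (horizontal axis), 1 point for each of the 35 members, in 1 panel for each group. In miR-23a KO, 16 of the 17 members with a GC content below 50.5% lie below the line at 0 and *PCGF5* above it, and all members lie within 2-fold in miR-27a KO.

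Levels between genes are compared as normalised CPM (read counts scaled to library size) per kilobase of transcript, in the mean of the 2 Scr libraries. The highest means were those of *PHC2*, a polyhomeotic subunit of canonical PRC1, at 73.5 ± 8.79 (SD, n = 2), and *PCGF1*, the PCGF subunit of the KDM2B complex, at 68.9 ± 17.8, which differed by less than their spread, with *PCGF1* above *PHC2* in Scr replicate 2. Next came *PCGF2* at 42.5 ± 4.27, *RBBP7* at 37.8 ± 1.31, *KDM2B* at 37.3 (34.5 and 40.1 in the libraries), *RING1* at 35.7 ± 3.38 and *BAP1* at 35.3 ± 0.329 CPM per kb, where neighbours in this order from *RBBP7* down differed by less than their spread. *RYBP* was at position 33 of 35 with 1.60 ± 0.156 CPM per kb, *YAF2* at position 34 with 1.36 ± 0.0675 and *PHC3* last with 0.733 ± 0.276 (SD, n = 2). The summed level of all 35 members was 1979 and 1955 CPM for Scr, 2330.2 and 1972 CPM for miR-23a KO, and 1929.8 and 1933 CPM for miR-27a KO.

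**Figure D2:**
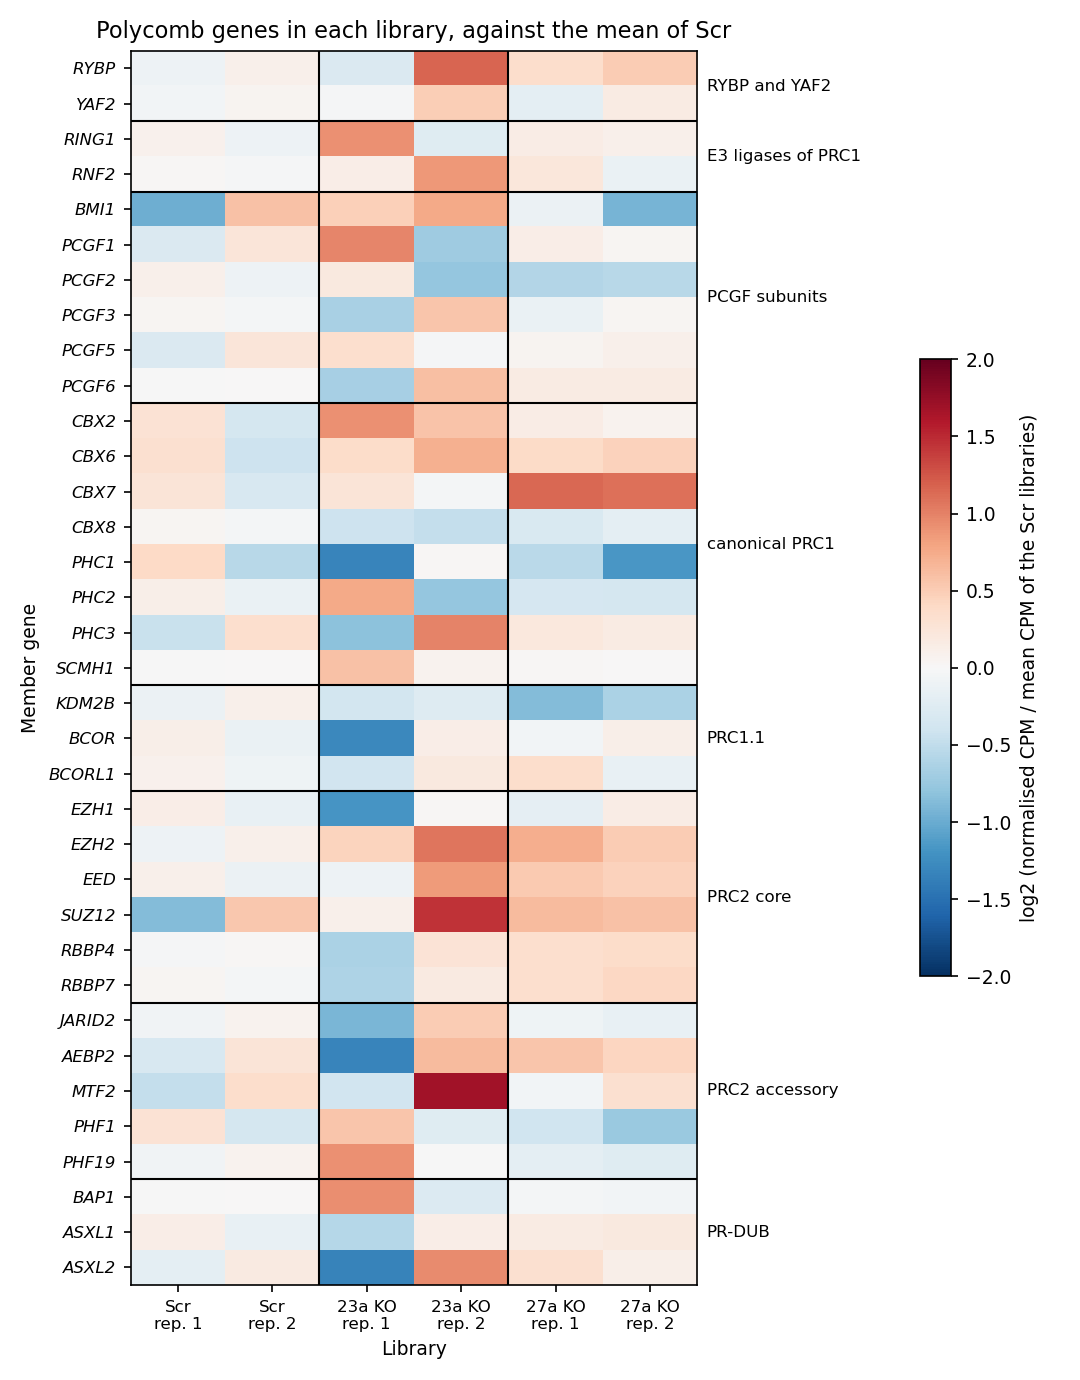
Log2 ratio of the normalised CPM of each of the 35 members to its mean in the Scr libraries, with 1 column for each library and members grouped by complex; red is higher and blue lower than the Scr mean. The miR-23a KO columns differ from each other in most members, and *CBX7* is red and *KDM2B* and *PCGF2* are blue in both miR-27a KO columns.

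Within families of paralogues the shares of the level per kb differed by library. RYBP and YAF2 are alternative subunits, and *RYBP* made up 53.3% and 54.9% for Scr, 49.8% and 65.4% for miR-23a KO, and 63.3% and 59.8% for miR-27a KO of the pair. The miR-27a KO libraries were above the Scr libraries, and the miR-23a KO libraries lay on either side of all others. Among the CBX genes measured here, *CBX7* made up a mean of 8.08% for Scr, 6.42% for miR-23a KO and 14.7% for miR-27a KO, with both miR-27a KO libraries above the other 4 and both miR-23a KO libraries below the other 4. *EZH2* made up 70.8% and 77.2% for Scr, 89.9% and 85.6% for miR-23a KO, and 84.3% and 78.6% for miR-27a KO of the pair with *EZH1*, and both KO groups lay above both Scr libraries. *PCGF2* made up 37.5% and 26.4% for Scr, 23.1% and 24.8% for miR-23a KO, and 22.2% and 23.7% for miR-27a KO of the PCGF subunits, lower in each KO library than in either Scr library. Shares were not tested, and *PHC2* held between 91.2% and 98.8% of the PHC level in every library.

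**Figure D3:**
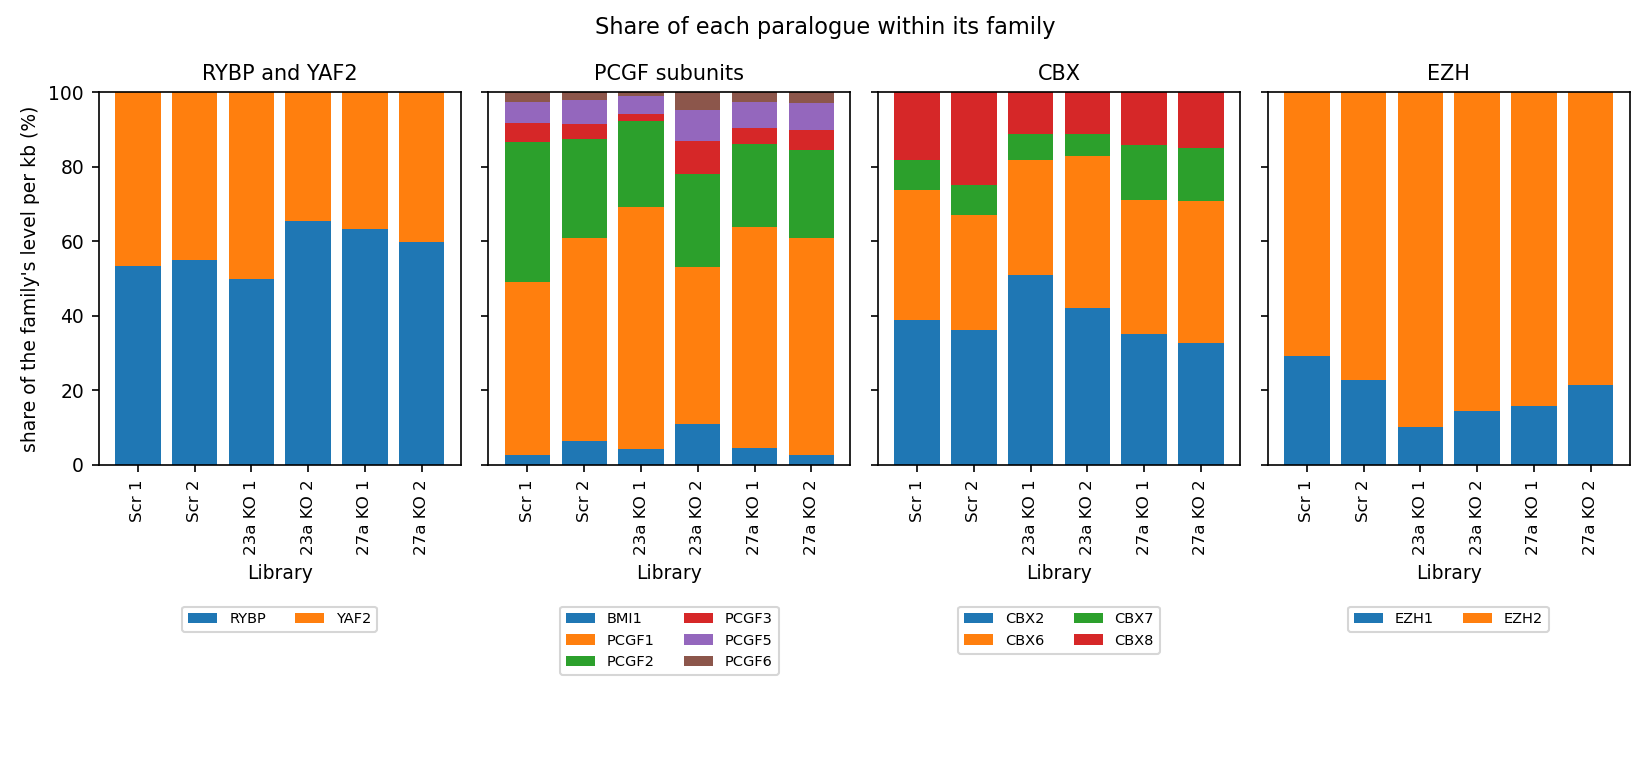
Share in percent of each paralogue in the summed CPM per kb of its family, as stacked bars with 1 bar for each library. The *CBX7* share has a mean of 14.7% in miR-27a KO and is at most 8.17% in the other libraries.

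The values of single members follow by role, as normalised CPM with replicate 1 before replicate 2. *RYBP* (gene 23429, chr3:72371825-72446621, minus strand) had 10.8 and 12.4 for Scr, 9.51 and 26.1 for miR-23a KO, and 14.8 and 16.4 for miR-27a KO. Both miR-27a KO libraries were above both Scr libraries, while miR-23a KO held the lowest and the highest of the 6 values. *YAF2* (gene 10138) had 6.68 and 7.16 for Scr, 6.77 and 9.75 for miR-23a KO, and 6.06 and 7.77 for miR-27a KO, and its groups overlapped. Among the ubiquitin ligases, *RING1* had 66.7 and 58.3 for Scr, 117 and 53.1 for miR-23a KO, and 69.0 and 67.3 for miR-27a KO, and *RNF2* had 12.2 and 11.9 for Scr and 13.2 and 22.0 for miR-23a KO, with miR-27a KO on either side of Scr. In miR-23a KO, *RING1* was high in replicate 1 and *RNF2* in replicate 2, so the order of these libraries was opposite for the ligases. *RYBP* was among the candidate target genes that the study chose with these same libraries, so its values are no independent evidence of a direction. The study's criteria for candidates included over 1.5-fold at a q-value under 0.001 in both KO groups. In the fits below *RYBP* did not meet these criteria in either KO group.

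Of the PCGF subunits, *PCGF2* (gene 7703, chr17:38733897-38749817, minus strand), a partner of CBX proteins in canonical PRC1, had 139 and 121 for Scr, 149 and 75.8 for miR-23a KO, and 86.7 and 88.2 for miR-27a KO. Both miR-27a KO libraries were below both Scr libraries, and miR-23a KO held the highest and the lowest value. *BMI1* (gene 648, chr10:22321211-22331484, plus strand), its close paralogue, had 11.2 and 33.0 for Scr, 30.7 and 37.3 for miR-23a KO, and 20.4 and 11.6 for miR-27a KO. Its Scr libraries were 2.95-fold apart and its groups overlapped, except that miR-27a KO lay below miR-23a KO throughout. *BMI1* counts are uncertain because the table also lists the readthrough gene *COMMD3-BMI1*, which had 88 and 6 counts for Scr, 11 and 243 for miR-23a KO, and 2 and 155 for miR-27a KO. Summed, as chosen after seeing the data, both genes had 249 and 494 counts for Scr, 415 and 935 for miR-23a KO, and 338 and 347 for miR-27a KO. The miR-27a KO replicates, far apart for *BMI1* alone, were close in the sum.

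Of the canonical PRC1 genes, *CBX7* (gene 23492, chr22:39120167-39152674, minus strand), a reader of the PRC2 mark, had 8.70 and 5.81 for Scr, 8.68 and 7.06 for miR-23a KO, and 16.1 and 15.6 for miR-27a KO. The miR-27a KO libraries were the highest, with no overlap, and the Scr and miR-23a KO libraries overlapped. *CBX8* (gene 57332), another reader, had 17.9 and 16.8 for Scr, 13.1 and 12.5 for miR-23a KO, and 14.1 and 15.1 for miR-27a KO, with all 4 KO libraries below both Scr libraries. *PHC1* (gene 1911), a polyhomeotic subunit, had 17.5 and 8.99 for Scr, 5.33 and 13.5 for miR-23a KO, and 9.15 and 5.90 for miR-27a KO. Its groups overlapped and each pair was wide. *KDM2B* (gene 84678, chr12:121429097-121581015, minus strand), which brings variant PRC1 to unmethylated CpG islands, had 180.0 and 209.6 for Scr, 151 and 163 for miR-23a KO, and 107 and 125 for miR-27a KO. Scr was highest, miR-23a KO intermediate and miR-27a KO lowest, with no overlap between any of the groups.

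Of the PRC2 core, *EZH2* (gene 2146), the methyltransferase, had 18.2 and 20.8 for Scr, 26.6 and 41.0 for miR-23a KO, and 32.4 and 27.8 for miR-27a KO, with all 4 KO libraries above both Scr libraries. *EED* (gene 8726), which binds the methyl mark, had 11.1 and 9.46 for Scr, 9.59 and 18.4 for miR-23a KO, and 14.7 and 14.2 for miR-27a KO, and *SUZ12* (gene 23512), the scaffold, had 5.22 and 13.8 for Scr, 10.2 and 25.8 for miR-23a KO, and 14.7 and 14.3 for miR-27a KO. For both, miR-27a KO lay above Scr without overlap and miR-23a KO overlapped Scr. *SUZ12* shares sequence with 2 named copies, and the 1 in the table, *SUZ12P1*, had 100 and 64 counts for Scr, 36 and 164 for miR-23a KO, and 98 and 113 for miR-27a KO, so *SUZ12* is reported as uncertain. *EZH1* (gene 2145), the other methyltransferase, had 13.1 and 10.7 for Scr, 5.25 and 12.1 for miR-23a KO, and 10.5 and 13.3 for miR-27a KO, with the lowest value in miR-23a KO replicate 1 and overlap elsewhere. Summed over *EZH1*, *EZH2*, *EED* and *SUZ12*, the 4 core genes had 47.6 and 54.8 CPM for Scr, 51.6 and 97.4 for miR-23a KO, and 72.3 and 69.6 for miR-27a KO. The sum was higher in miR-27a KO than in Scr in both libraries and was not tested.

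The histone-binding subunits RBBP4 and RBBP7 also serve in chromatin assembly and deacetylase complexes. *RBBP4* (gene 5928, chr1:32651142-32686211, plus strand) had 186 and 191 for Scr, 121 and 226 for miR-23a KO, and 239 and 244 for miR-27a KO, and *RBBP7* (gene 5931, chrX:16839283-16870414, minus strand) had 90.4 and 86.0 for Scr, 57.4 and 99.4 for miR-23a KO, and 112 and 117 for miR-27a KO. In both genes the miR-27a KO libraries were the highest of all, and miR-23a KO replicate 1 was the lowest. *RBBP4* has 7 named copies in RefSeq and the table lists 0 of them, so reads of copies could have been counted with it and its values are uncertain. The same limit applies to *RNF2*, *BMI1*, *PHC1*, *BCOR* and *EED*, each with 1 named copy that the table does not list. *MTF2* (gene 22823), a Polycomb-like subunit that guides PRC2 to CpG islands, had 5.15 and 9.19 for Scr, 5.48 and 22.9 for miR-23a KO, and 6.91 and 8.98 for miR-27a KO. Replicate 2 of miR-23a KO was high, and the other 5 libraries overlapped. In the PR-DUB complex, which removes ubiquitin from H2A, *BAP1* and *ASXL1* were also split in miR-23a KO, in opposite directions. *BAP1* had 138 and 139.8 for Scr, 266 and 115 for miR-23a KO, and 135 and 134 for miR-27a KO. *ASXL1* had 177 and 145 for Scr, 108 and 176 for miR-23a KO, and 180.5 and 183 for miR-27a KO. *BAP1* was high in miR-23a KO replicate 1, where *ASXL1* was lowest.

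**Figure D4:**
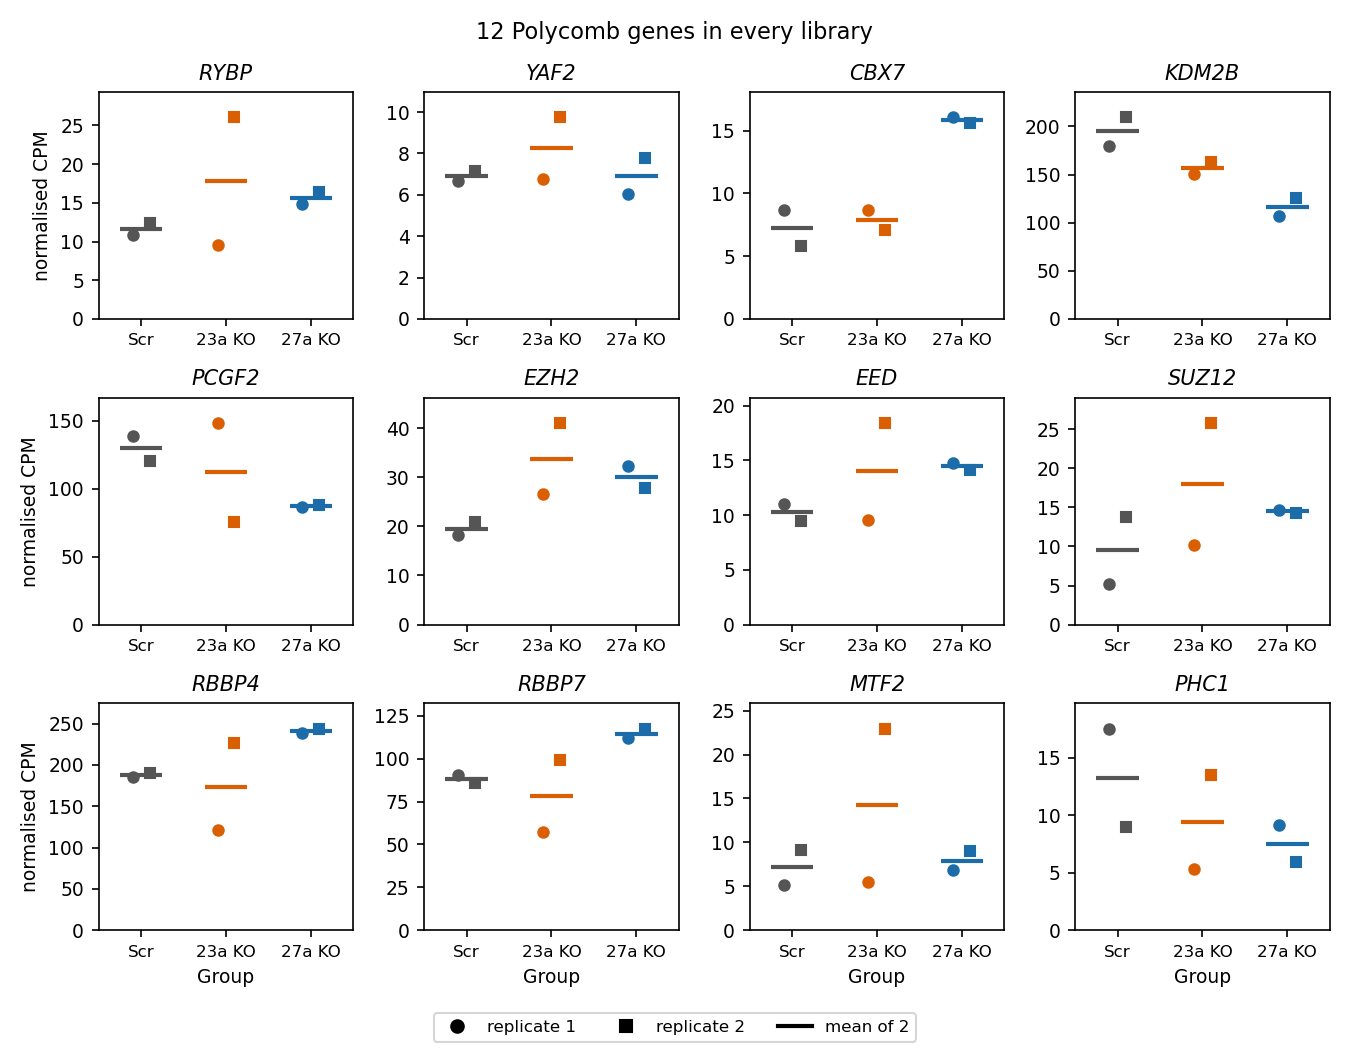
Normalised CPM of 12 members (vertical axis, from 0) in each group (horizontal axis), with replicate 1 as circles, replicate 2 as squares and the mean of 2 as a line. *CBX7* in miR-27a KO lies above the other 4 libraries, *KDM2B* and *PCGF2* in miR-27a KO lie below both Scr libraries, and the miR-23a KO replicates are wide apart in most panels.

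In miR-23a KO against Scr cells, no member passed the test. With no overlap, the miR-23a KO libraries exceeded the Scr libraries for 5 members, which are *EZH2*, *CBX2* and *CBX6*, readers of the PRC2 mark for the latter pair, the ligase *RNF2* and the canonical PRC1 subunit *SCMH1*. That is 14.3% of the members, against 8.88% of all genes tested. Both lay below Scr for *KDM2B* and *CBX8*, 5.71% of the members against 14.9% of all genes. The median log2 fold change of the 35 members was 0.25, with 26 positive and 9 negative values, beside 0.16 for all 13786 genes tested, of which 63.0% were positive. Read against all genes, these counts are no result about the members.

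At an adjusted p under 0.05, the quasi-likelihood test of edgeR with Benjamini-Hochberg adjustment called 0 members higher (0.0% of all genes) and 0 lower (0.0%) in miR-23a KO, and 0 at an unadjusted p under 0.05, where 0.856% of all genes were higher and 1.55% lower. DESeq2 and limma also called 0 members, against 0.457% and 0.0% of all genes. The highest fitted log2 fold changes were 1.09 (standard error 0.78) for *MTF2*, 1.01 (standard error 0.71) for *SUZ12* and 0.88 (standard error 0.50) for *EZH2*. The lowest were -0.40 (standard error 0.68) for *PHC1*, -0.37 (standard error 0.50) for *CBX8* and -0.36 (standard error 0.63) for *EZH1*. After a correction for GC content and length, in which 0 members passed, *MTF2* had 0.49, *SUZ12* 0.55, *EZH2* 0.86 and *RYBP* 0.35. Uncorrected, *RYBP* had 0.72 (standard error 0.64) and *YAF2* 0.33 (standard error 0.59), and the smallest adjusted p of any member was 0.99956 (quasi-likelihood test of edgeR, Benjamini-Hochberg). The biological coefficient of variation in the uncorrected fit was 0.446, against 0.159 in the fit of miR-27a KO and Scr, so a member had to differ by more to pass. Without miR-23a KO replicate 2, 9 members passed (6 higher and 3 lower), 25.7% against 18.6% of all genes, and the *RYBP* log2 fold change was -0.28, that of *MTF2* -0.39, of *SUZ12* 0.10 and of *EZH2* 0.45, and the median of the members -0.10, so the sign of the median depends on that library. Without replicate 1, 0 members passed, against 4.12% of all genes, *PHC1* had 0.07 and *EZH1* 0.06, and *RYBP* had 1.21 (adjusted p 0.0662, quasi-likelihood test of edgeR, Benjamini-Hochberg). In these fits the lone library is assumed to vary like Scr.

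In miR-27a KO against Scr cells, 5 members passed the test, which is the quasi-likelihood test of edgeR with Benjamini-Hochberg adjustment at an adjusted p under 0.05. *CBX7* rose 2.18-fold, *RBBP7* 1.30-fold and *RBBP4* 1.28-fold, while *KDM2B* fell to a level 1.68-fold lower and *PCGF2* to one 1.49-fold lower, with 2 of 2 miR-27a KO libraries on that side of both Scr libraries in each. The 3 higher members are 8.57% of the members, against 4.91% of all genes, and the 2 lower members 5.71%, against 9.12%. None of these 5 genes has a seed site for either miRNA by the match above. In bulk samples such as these, fewer cells that express a gene and less RNA per cell cannot be told apart.

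The fitted log2 fold change in miR-27a KO was 1.12 (standard error 0.24, adjusted p 0.0420) for *CBX7* by the quasi-likelihood test of edgeR with Benjamini-Hochberg adjustment. By the same edgeR quasi-likelihood test and Benjamini-Hochberg adjustment, *KDM2B* had -0.75 (standard error 0.12, adjusted p 0.0232) and *PCGF2* -0.58 (standard error 0.10, adjusted p 0.0268). For the histone-binding subunits that test (edgeR quasi-likelihood, Benjamini-Hochberg) gave 0.36 (standard error 0.08, adjusted p 0.0391) for *RBBP4* and 0.37 (standard error 0.08, adjusted p 0.0442) for *RBBP7*. At the stricter criteria of the study, over 1.5-fold at an adjusted p under 0.001, the quasi-likelihood test of edgeR called 0 members, 0.0145% of all genes higher and 0.0145% lower. The study reports far more genes at these cut-offs in either KO group, and its methods name no test. At an unadjusted p under 0.05 the quasi-likelihood test of edgeR had 5 members higher, *EZH2* and *EED* added to the 3 above (13.8% of all genes), and 3 lower, *PHC2* added (18.4%). DESeq2 also had 3 higher and 2 lower, with *EZH2* in place of *RBBP7*, and limma had 3 and 2, so that each called 14.3% of the members, against 16.2% of all genes by DESeq2 and 14.3% by limma.

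These calls rest on both miR-27a KO libraries and on how the spread was modelled. Without miR-27a KO replicate 1, 0 members passed and the adjusted p of the 5 genes lay between 0.165 and 0.422, and without replicate 2 again 0 passed, between 0.0752 and 0.490 (quasi-likelihood test of edgeR, Benjamini-Hochberg), against 2.96% and 2.34% of all genes. The log2 fold changes stayed near those of all libraries, with 1.11 and 1.16 for *CBX7*, -0.63 and -0.86 for *KDM2B* and -0.56 and -0.58 for *PCGF2*, while the spread, then from the Scr pair alone, was 0.230 as a coefficient of variation. Without Scr replicate 1, 14 of the 35 members passed (against 37.8% of all genes) and without Scr replicate 2, 16 (45.7%, against 49.4%), where the spread came from the miR-27a KO pair alone. With all 6 libraries in 1 fit 0 passed, against 0.452% of all genes. With no filter on low counts, *CBX7* (adjusted p 0.0658), *RBBP4* (0.0565) and *RBBP7* (0.0635) did not pass. With the replicate number as a block, *RBBP4* had an adjusted p of 0.0654 and *RBBP7* of 0.0605 (quasi-likelihood test of edgeR, Benjamini-Hochberg). After a correction for GC content and length, the log2 fold change of *RBBP4* was 0.11 (adjusted p 0.586) and of *RBBP7* 0.23 (adjusted p 0.149), whereas *CBX7* had 1.36 (adjusted p 0.0118) and *PCGF2* -0.37 (adjusted p 0.0349), by the quasi-likelihood test of edgeR with Benjamini-Hochberg adjustment. *RING1* passed there as well, at 0.40 (adjusted p 0.0351, quasi-likelihood test of edgeR, Benjamini-Hochberg). *KDM2B* then had -0.60 (adjusted p 0.0521, same edgeR quasi-likelihood test and Benjamini-Hochberg adjustment). With the replicate block added to that correction, 6 members passed (17.1%, against 18.9% of all genes), *KDM2B* at -0.60 (adjusted p 0.00368), *PHC1* at -0.73 (adjusted p 0.0388) and *CBX6* at 0.59 (adjusted p 0.0181, quasi-likelihood test of edgeR, Benjamini-Hochberg) beside *CBX7*, *PCGF2* and *RING1*.

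By role, 5 of the 6 PRC2 core genes, here counted with *RBBP4* and *RBBP7*, lay above Scr in both miR-27a KO libraries, where 32.4% of all genes did. Of them 2 passed as higher, *RBBP4* and *RBBP7*, where 4.91% of all genes did. Both lost their calls after the correction for GC content and length, and the values of *RBBP4* and *SUZ12* are uncertain. *EZH2* had 0.62 (standard error 0.15) with an adjusted p of 0.0539, *EED* 0.49 (standard error 0.18) with 0.132 and *SUZ12* 0.60 (standard error 0.44) with 0.397 (quasi-likelihood test of edgeR, Benjamini-Hochberg), and *EZH1* had -0.01 (standard error 0.21). Of the 5 accessory subunits of PRC2, *AEBP2*, which helps PRC2 bind chromatin, lay above Scr at 0.49 (standard error 0.25). *JARID2*, *PHF1* and *PHF19* lay below at -0.12, -0.56 and -0.22. None of these 4 passed. Of the 8 canonical PRC1 genes 1 passed, *CBX7*, and the lowest log2 fold change of any member was that of *PHC1*, -0.82 (standard error 0.40), with an adjusted p of 0.219 (quasi-likelihood test of edgeR, Benjamini-Hochberg). *PHC2* had -0.35 (standard error 0.11) and *CBX8* -0.25 (standard error 0.15), neither of which passed. Of the PCGF subunits *PCGF2* fell, *BMI1* had -0.47 (standard error 0.54) (-0.30 when summed with *COMMD3-BMI1*), and the other 4 lay between -0.05 and 0.16. The values of genes with a wide Scr pair depend on the Scr library kept. Without Scr replicate 1 and without Scr replicate 2, *BMI1* had -1.04 (adjusted p 0.0208) and 0.51 (adjusted p 0.221), *SUZ12* 0.08 (adjusted p 0.694) and 1.47 (adjusted p 0.000453), and *PHC1* -0.25 (adjusted p 0.501) and -1.22 (adjusted p 0.00499, quasi-likelihood test of edgeR, Benjamini-Hochberg).

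*RYBP* had 0.43 (standard error 0.17), higher in 2 of 2 libraries, with an adjusted p of 0.162 (quasi-likelihood test of edgeR, Benjamini-Hochberg), and so did not pass. After the correction for GC content and length *RYBP* had 0.20 (adjusted p 0.388), and without Scr replicate 2 it passed at 0.53 (adjusted p 0.0210, quasi-likelihood test of edgeR, Benjamini-Hochberg), with the spread from the miR-27a KO pair alone. *YAF2* had -0.00 (standard error 0.24). Neither *RING1* at 0.12 nor *RNF2* at 0.06 passed, and in PR-DUB the log2 fold changes lay between -0.05 for *BAP1* and 0.22 for *ASXL2*. With no overlap, the miR-27a KO libraries exceeded the Scr libraries for 12 members (34.3%, against 32.4% of all genes) and lay under them for 8 (22.9%, against 31.9%). The median log2 fold change of the members was 0.08, with 22 positive and 13 negative values, beside 0.01 over all 13820 genes tested. These shares are near those of all genes and are no result about the members as a group.

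**Figure D5:**
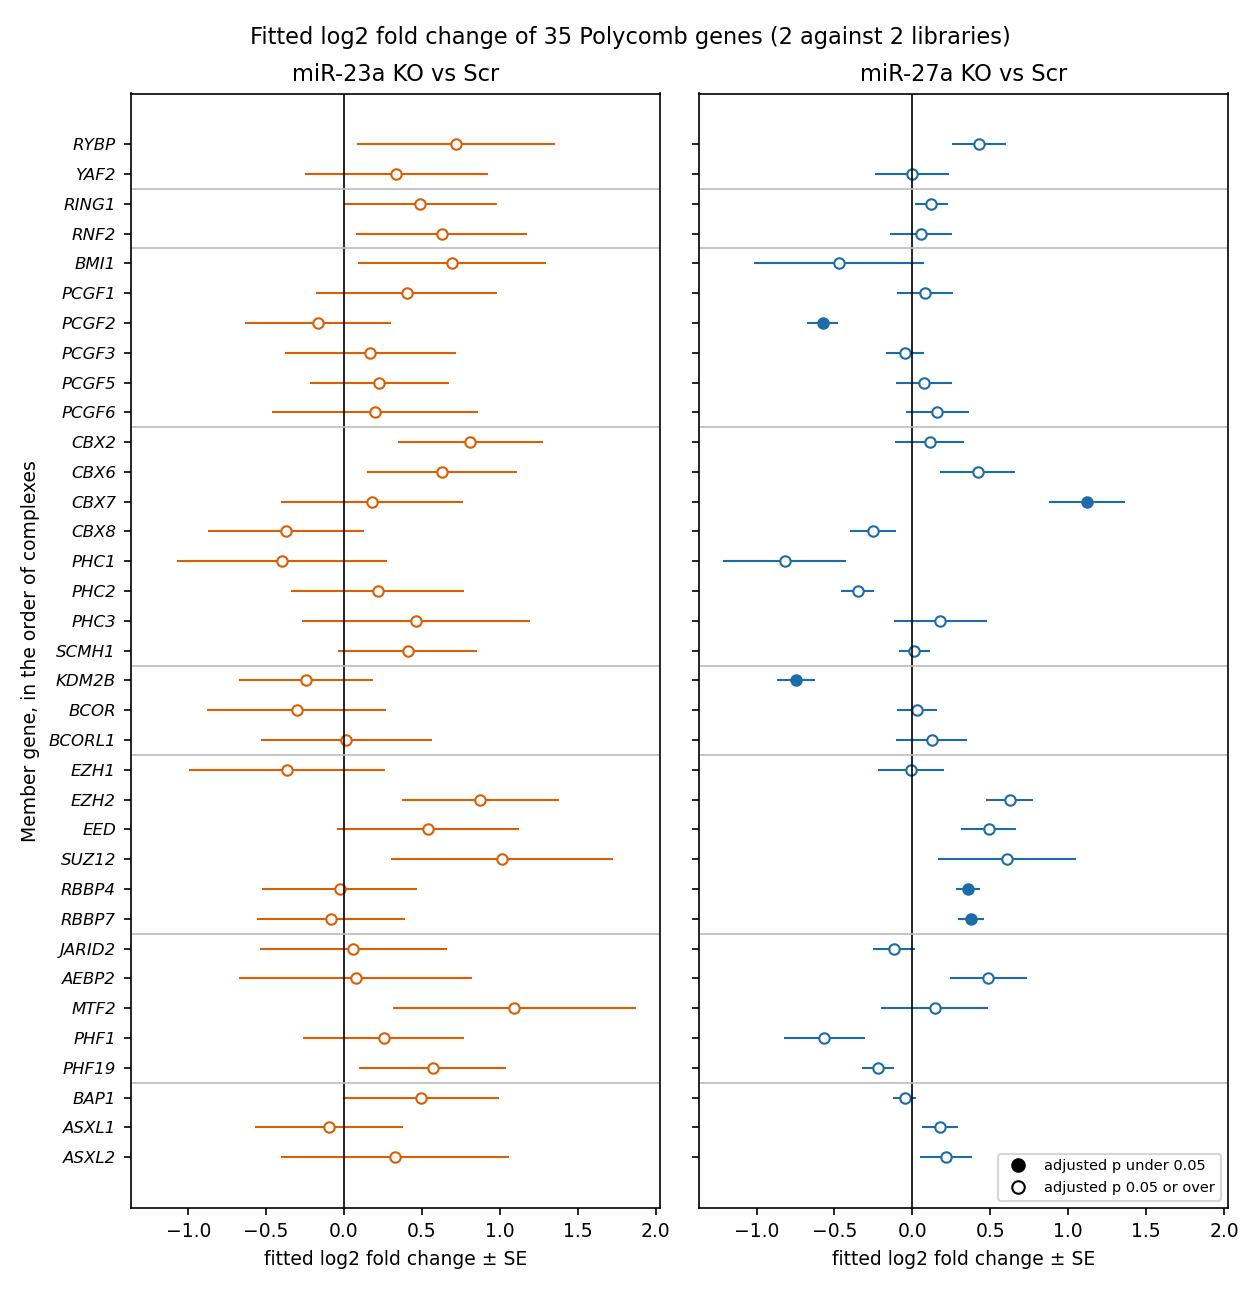
Fitted log2 fold change against Scr with its standard error (horizontal axis) for each of the 35 members in order of complex, in miR-23a KO (left) and miR-27a KO (right), with 2 against 2 libraries. Filled points passed an adjusted p under 0.05 in the quasi-likelihood test of edgeR with Benjamini-Hochberg adjustment, which are 5 members in miR-27a KO and 0 in miR-23a KO.

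Both comparisons share the Scr libraries, so the KO groups were also compared with each other. When miR-23a KO was set against miR-27a KO no member passed, and 0 members were called higher or lower (0.0% of all genes each way) by the quasi-likelihood test of edgeR with Benjamini-Hochberg adjustment. That test had, at an unadjusted p under 0.05, 0 members higher (4.66% of all genes) and 1 lower (4.06%), and DESeq2 and limma called 0 members, against 3.45% and 0.246% of all genes. That 1 member was *CBX7*, at -1.01 on the log2 scale (standard error 0.36), lower in miR-23a KO, with an adjusted p of 0.524 (quasi-likelihood test of edgeR, Benjamini-Hochberg). *BMI1* was at the other end, 2.14-fold higher in miR-23a KO, with an adjusted p of 0.574 (quasi-likelihood test of edgeR, Benjamini-Hochberg), and a log2 fold change of 0.99 when summed with *COMMD3-BMI1*. *KDM2B* had 0.44 (standard error 0.32), *PCGF2* 0.36 (standard error 0.44), *RBBP4* -0.47 (standard error 0.43) and *RBBP7* -0.54 (standard error 0.40), so in this fit the calls made against Scr in miR-27a KO alone are not shown to differ between the KO groups. With the GC content and length correction and the replicate block together, 2 members passed, *CBX7* at -1.13 (adjusted p 0.0342) and *BMI1* at 1.07 (adjusted p 0.0262, quasi-likelihood test of edgeR, Benjamini-Hochberg), against 9.21% of all genes.

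With no overlap, the miR-23a KO libraries exceeded the miR-27a KO libraries for 6 members (*BMI1*, *CBX2*, *SCMH1*, *KDM2B*, *PHF1* and *PHF19*), 17.1% against 18.7% of all genes. They lay under those for 5 (*CBX7*, *CBX8*, *RBBP4*, *RBBP7* and *ASXL1*), 14.3% against 20.7%. The median log2 fold change of the members was 0.18, beside 0.11 over the 13841 genes tested. Without miR-23a KO replicate 1, 23 members passed (65.7%, against 57.8% of all genes) and *RYBP* was at 0.73, and without replicate 2, 27 passed (77.1%, against 68.0%) and *RYBP* was at -0.71, in fits where the lone library is assumed to vary like the miR-27a KO pair.

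Other genes that act with or against the complexes were read from lists. Of 27 further pathway genes 25 were tested in miR-27a KO against Scr. By the quasi-likelihood test of edgeR 2 rose and 1 fell, where 4.91% of all genes rose and 9.12% fell. The median log2 fold change of the 25 was -0.09. That test had 2 higher and 4 lower at an unadjusted p under 0.05 (13.8% and 18.4% of all genes). DESeq2 called 2 higher and 2 lower, and limma 2 and 1. *USP7*, a deubiquitinase found with variant PRC1, rose by 0.56 and *YY1*, a DNA-binding protein that also binds RYBP, by 0.44. *SCML1*, of the family of *SCMH1*, fell by 1.57 on the log2 scale. Of 11 factors that oppose Polycomb 0 rose and 1 fell by the quasi-likelihood test of edgeR (the same 4.91% and 9.12% apply), *SMARCB1* of the SWI/SNF remodeller at -0.57, with a median of -0.09. At an unadjusted p under 0.05 that test had 1 opposing factor higher and 2 lower (13.8% and 18.4% of all genes). DESeq2 and limma each called 0 higher and 1 lower. Without either miR-27a KO library these 4 genes lost their calls, with an adjusted p of up to 0.295 for *USP7*, 0.372 for *YY1*, 0.149 for *SCML1* and 0.310 for *SMARCB1* (quasi-likelihood test of edgeR, Benjamini-Hochberg). With no filter on low counts *YY1* (adjusted p 0.0735), *SCML1* (0.0526) and *SMARCB1* (0.0515) lost theirs, as did *YY1* after the GC content and length correction (adjusted p 0.0603, quasi-likelihood test of edgeR, Benjamini-Hochberg). In the settings that keep all libraries the log2 fold change of *YY1* lay between 0.36 and 0.46. That of *SCML1* lay between -1.79 and -1.37, and that of *SMARCB1* between -0.58 and -0.36.

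Genes known as Polycomb targets in many cell types were read as well, where 11 of 16 were tested. In miR-27a KO against Scr 1 rose and 4 fell by the quasi-likelihood test of edgeR (4.91% and 9.12% over all genes), with a median log2 fold change of -0.27. That test had 1 higher and 5 lower at an unadjusted p under 0.05 (13.8% and 18.4% of all genes). DESeq2 called 1 and 5, and limma 1 and 4. *GATA6*, a transcription factor of endoderm, had 4.87 and 3.31 for Scr, 2.44 and 4.58 for miR-23a KO, and 13.6 and 15.1 for miR-27a KO CPM and rose by 1.80 on the log2 scale. *CDKN2B*, a cell cycle inhibitor, had 27 and 27 counts for Scr, 7 and 30 for miR-23a KO, and 2 and 1 for miR-27a KO, and fell in miR-27a KO. In that fit *CDKN2B* passed the filter on low counts only through its Scr libraries. The transcription factors *FOXC1* (-1.62), *TBX3* (-1.02) and *GATA4* (-0.61) fell too. The table lists 24 HOX cluster genes, of which 9 were tested. By the quasi-likelihood test of edgeR 3 rose and 0 fell (4.91% and 9.12% over all genes). At an unadjusted p under 0.05 it had 5 and 0 (13.8% and 18.4% of all genes), and DESeq2 and limma each had 3 and 0. The 3, named after their values were seen, were *HOXD1* at 2.10 and *HOXD4* at 2.82 on the log2 scale, and *HOXD9* with 0 counts in each Scr and miR-23a KO library and 34 and 26 in miR-27a KO. *HOXD9* passed the filter on low counts only through its miR-27a KO libraries, so its call is no support for a rise of HOX genes. All 3 lie in the HOXD cluster. With all 6 libraries in 1 fit, 17 of the 18 called genes of the lists, markers included, lost their calls, and *AFP* kept it. Targets were found in both directions beside the member changes, and a link between them was not tested. With 1 library left out the adjusted p rose to at most 0.0890 for *GATA6*, 0.135 for *CDKN2B*, 0.216 for *FOXC1*, 0.0716 for *TBX3* and 0.220 for *GATA4* (quasi-likelihood test of edgeR, Benjamini-Hochberg), each without a miR-27a KO library. After the correction for GC content and length *GATA4* had -0.38 (adjusted p 0.136) and lost its call (quasi-likelihood test of edgeR, Benjamini-Hochberg).

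In miR-23a KO against Scr, 0 genes of these lists passed the quasi-likelihood test of edgeR. At an unadjusted p under 0.05, where 0.856% of all genes were higher and 1.55% lower, it had 0 higher and 1 lower among the Polycomb targets. Among the HOX genes it had 0 and 1, and in the other 2 lists 0. DESeq2 had the same counts, and limma had 0 throughout. The median log2 fold change was 0.19 for the pathway genes and -0.01 for the opposing factors. It was -0.13 for the Polycomb targets and -0.48 for the 8 HOX genes tested. Without overlap, 3 of 25 pathway genes and 3 of 11 opposing factors lay below Scr, where 14.9% of all genes did. So did 4 of 11 Polycomb targets and 3 HOX genes. Above Scr lay 1 pathway gene and 0 genes of the other lists, where 8.88% of all genes did. E2F factors drive *EZH2* and *EED* in dividing cells, so proliferation markers are given beside them. The 10 markers summed to 1320 and 1547 CPM for Scr, 1773 and 1927 for miR-23a KO, and 1764 and 1787 for miR-27a KO, with *PCNA* the most abundant in Scr and miR-27a KO, *MCM5* and *MCM3* in the miR-23a KO libraries, and 0 at 0 counts throughout. In miR-27a KO 8 of 10 lay above Scr in both libraries (32.4% of all genes did) and *MCM2* (0.37) and *MCM5* (0.52) rose (4.91% of all genes did), with a median log2 fold change of 0.24. Without a miR-27a KO library their adjusted p reached 0.459 and 0.255, and *MCM2* lost its call with no filter (adjusted p 0.0658) and with the replicate block (adjusted p 0.0598, quasi-likelihood test of edgeR, Benjamini-Hochberg). In miR-23a KO 5 of 10 lay above Scr (8.88% of all genes did), with a median of 0.47, and 0 passed the quasi-likelihood test of edgeR. At an unadjusted p under 0.05 that test had 1 higher (0.856% of all genes), and DESeq2 and limma called 0. The part of proliferation in the PRC2 values was not tested.

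Liver markers were present in each library, as the HepG2 label requires. The 9 hepatocyte and HepG2 markers summed to 30012 and 37179 CPM for Scr, 31642 and 32837 for miR-23a KO, and 25833 and 25758 for miR-27a KO, with *SERPINA1* or *ALB* the most abundant in each library. In miR-27a KO *TF* rose by 1.25 on the log2 scale, *AFP* fell by 4.11 and *ALB* by 2.59 (the quasi-likelihood test of edgeR). Without miR-27a KO replicate 2 *TF* lost its call, and so it did after the GC content and length correction (adjusted p 0.0726, quasi-likelihood test of edgeR, Benjamini-Hochberg). The log2 fold change of *TF* lay between 0.92 and 1.27 in the settings that keep all libraries. With 1 library left out it lay between 1.00 and 1.55. Of the markers of other cells, fibroblast *COL1A1* reached at most 0.139 CPM and the other 4 fibroblast genes were not in the table. The 4 leukocyte markers summed to 166 and 156 CPM for Scr, 139.7 and 72.5 for miR-23a KO, and 111 and 107 for miR-27a KO, most of it the lysosomal gene *CD68*, while *PTPRC*, which defines leukocytes, had at most 2 counts. *CD68*, 1 of 2 leukocyte markers tested, fell by 0.58 in miR-27a KO by the quasi-likelihood test of edgeR, with an adjusted p of up to 0.242 without a miR-27a KO library (Benjamini-Hochberg). The 3 endothelial markers summed to at most 6.84 CPM in any library. The part of these shifts in the Polycomb values was not tested.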

How the data were processed

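RNA was measured in HepG2 cells, with 2 libraries per group (Scr and either KO). For each gene the authors deposited 1 value per library, under a column name that says FPKM, and the values have the properties of expected counts, not scaled for depth or length. The submitters' processing notes name HISAT, StringTie, Cufflinks and GATK. The genome build, annotation and counting tool are not given in the sources used here. Expected counts were rounded, filtered with filterByExpr and scaled by TMM. Each pair of groups was fitted alone with the quasi-likelihood test of edgeR (edgeR 4.0.16, R 4.3.3), with Benjamini-Hochberg adjustment over all genes tested. All 35 members were tested in each comparison. CPM in the text use TMM factors over all 6 libraries. With 2 libraries a group, p-values measure only the spread between these libraries, which may be technical. The workflow was tested on simulated data. Alternatives were median-ratio size factors, DESeq2 1.42.0, limma 3.58.1 on log2(CPM + 1), no filter, all 6 libraries in 1 fit, the replicate number as a block, loess correction for GC content and length (span 0.5, degree 2), both of these together, each library left out, and *BMI1* summed with *COMMD3-BMI1*. Library values are given for *RYBP*, *YAF2*, each member that passed and the 3 highest and 3 lowest members against Scr; *BMI1*, *RING1*, *RNF2*, *EED*, *BAP1* and *ASXL1* were added after their values were seen. List genes were named where they passed, at most 5 in each direction; HOX genes, planned as counts, were named after their values were seen. Members and lists were chosen with earlier results of these data known.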

Additional observations from a re-analysis of the deposited data

Results flagged for a closer look

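For 5 genes of the lists, both miR-23a KO libraries lay on one side of both Scr libraries and both miR-27a KO libraries on the other. Over all genes tested, 8.88% lay above Scr and 14.9% below it in both miR-23a KO libraries. In both miR-27a KO libraries 32.4% lay above and 31.9% below. How many of all genes met both conditions was not counted, so the 5 are no result about the lists. The difference between the KO groups was tested with the quasi-likelihood test of edgeR with Benjamini-Hochberg adjustment, and none of the 5 passed an adjusted p under 0.05. DESeq2 called 3 of them lower in miR-23a KO (*PAX6*, *HOXD1* and *HOXD4*) and limma 1 (*HOXD4*). *DCAF7*, a subunit of some variant PRC1 complexes, had 240 and 248 CPM for Scr, 209.8 and 179.9 for miR-23a KO, and 262 and 273 for miR-27a KO, a log2 difference of miR-23a KO to miR-27a KO of -0.45 (adjusted p 0.800, quasi-likelihood test of edgeR, Benjamini-Hochberg). *PAX6*, a Polycomb target in many cells, had 13.6 and 13.8 CPM for Scr, 1.29 and 2.75 for miR-23a KO, and 13.9 and 14.6 for miR-27a KO, a log2 difference of -2.80 (adjusted p 0.170, quasi-likelihood test of edgeR, Benjamini-Hochberg). The other 3 are genes of the HOXD cluster, named after their values were seen. *HOXD1* differed by -2.85 (adjusted p 0.101) and *HOXD3* by -1.18 (adjusted p 0.656, quasi-likelihood test of edgeR, Benjamini-Hochberg). *HOXD4* had 93 and 118 counts for Scr, 0 and 5 for miR-23a KO, and 876 and 817 for miR-27a KO. Its fitted log2 difference of -8.32 (adjusted p 0.0961, quasi-likelihood test of edgeR, Benjamini-Hochberg) depends on the prior count, since 1 library is at 0. No member met this condition, and groups of 2 libraries are too small to single out a library by a gap test.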

How the results depend on the processing

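In miR-27a KO against Scr, where 5 members passed (14.3%, against 14.0% of all genes), 2 passed with no filter on low counts (against 5.40% of all genes), 0 with all 6 libraries in 1 fit (0.452%), 3 with GC content and length corrected (15.0%), 3 with the replicate number as a block (16.2%), and 0 to 16 with 1 library left out (2.34% to 49.4%). In miR-23a KO against Scr, where 0 passed, the counts with 1 library left out were 0 to 9 (0.0280% to 18.6% of all genes) and the median of the members, reported as 0.25, was -0.10 to 0.39. In miR-23a KO against miR-27a KO, where 0 passed by the quasi-likelihood test of edgeR, 2 passed with the GC content and length correction together with the block (9.21% of all genes), and 0 to 27 with 1 library left out (0.500% to 68.0%). There the median of the members ranged from -0.49 to 0.29 over the libraries left out. Some of the 14 members followed through each alternative also turned direction with the library left out. Among them were *PCGF2* from -0.21 to 0.77, *RYBP* from -0.71 to 0.73 and *SUZ12* from -0.50 to 0.82. A lone library is assumed to vary like the other group. Nothing in the labels says that equal replicate numbers pair libraries, and the differences between replicates correlated across 14163 genes at 0.217 for Scr and miR-23a KO, -0.00627 for Scr and miR-27a KO and 0.0207 for the KO groups. The counts of members kept within 1.5 times of the reported ones, and the medians within the spread between replicates, under the other alternatives. In miR-27a KO against Scr, the 35 members lost a call 16 times and gained one 5 times under settings that keep all libraries. The 18 called genes of the lists lost theirs 27 times in these settings, 17 of them in the fit of all 6 libraries. Losses and gains over all genes were not counted, so these counts are no result about the members. The cause of the lost and gained calls was not tested. The fit of all 6 libraries, which takes in the spread of miR-23a KO, had a biological coefficient of variation of 0.370. The fit of miR-27a KO and Scr alone had 0.159. With 2 libraries a group and a wide miR-23a KO pair, small differences of the members could have been missed in that group. No limit of detection was measured.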
